A study of Homo sapiens with 12 samples.

Results

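The 46 genes described here encode heterogeneous nuclear ribonucleoproteins (hnRNPs), serine/arginine-rich (SR) and SR-related proteins, the U2AF factor and other regulators of alternative splicing. They were taken by gene name from a fixed list, which leaves out HNRNPA1, HNRNPA2B1, SRSF3 and PTBP1. All 46 were found among the 60558 gene identifiers shared by the deposited NONO and PKM2 tables. The cells were MDA-MB-231, a triple-negative breast cancer cell line, and 12 libraries were made. NONO knockdown cells (3 libraries) were compared with an NC group of their own (3 libraries), and PKM2 knockdown cells (3 libraries) with another NC group (3 libraries). Knockdown was by siRNA, NC stands for negative control and carries the genotype label WT, and all groups come from 1 cell line. The paper lists more than 1 siRNA for each target and does not say which was used for these libraries. An effect of the siRNA sequence and loss of the target therefore cannot be told apart here. PKM2 is a splice form of the PKM gene, and the tables give 1 value per gene, so PKM in the tables covers all of its forms. Nothing in the labels says whether repeats came from separate cultures, so the p-values measure the spread between these libraries, which may be technical.

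Splicing removes introns at sites that the cell selects by reading short RNA elements. SR proteins carry domains rich in arginine-serine repeats, bind enhancer elements in exons and recruit the spliceosome, whereas hnRNPs coat nascent RNA and often silence the sites they cover. U2AF marks the 3′ splice site, and tissue-type regulators such as MBNL, CELF, QKI and RBFOX proteins act around alternative exons. The balance of these proteins is known to set the splice form choice of many genes in cancer cells.

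Arginine-serine repeats can be read in the coding sequences of the members. Counted as neighbouring arginine and serine codons in the longest complete coding sequence of each gene in GENCODE 29, the repeats reached a median of 19.1 pairs per 100 codons in the 11 SR proteins and 8.81 in the 6 SR-related proteins. The median over 19686 genes was 0.76, and the hnRNP groups had medians of 0.55 to 1.58. The stretches of 30 codons with the most pairs are shown for the 2 SR-related genes that fell most after PKM2 knockdown, for an SR gene that fell and for the SR gene that rose, with the codons of the pairs in capitals.
SRRM2: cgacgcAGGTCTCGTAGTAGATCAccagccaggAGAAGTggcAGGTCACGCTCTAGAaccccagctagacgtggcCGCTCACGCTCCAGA
SRRM1: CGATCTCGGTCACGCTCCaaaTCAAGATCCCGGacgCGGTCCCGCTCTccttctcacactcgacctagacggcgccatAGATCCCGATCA
SRSF2: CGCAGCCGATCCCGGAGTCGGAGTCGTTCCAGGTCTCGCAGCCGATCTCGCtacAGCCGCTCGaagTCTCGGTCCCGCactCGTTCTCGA
SRSF4: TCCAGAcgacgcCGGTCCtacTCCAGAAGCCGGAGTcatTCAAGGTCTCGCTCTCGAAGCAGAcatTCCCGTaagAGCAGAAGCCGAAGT
The stretches cover codons 632 to 661 of SRRM2, 277 to 306 of SRRM1, 127 to 156 of SRSF2 and 179 to 208 of SRSF4, and hold 14, 14, 23 and 18 pairs. On the GRCh38 annotation SRRM2 lies at chr16:2752329-2772538, plus strand, and SRRM1 at chr1:24631716-24673267, plus strand. SRSF2 lies at chr17:76734115-76737374, minus strand, and 36.7% of its exon bases are shared with MFSD11 on the other strand.

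Library totals lay between 19861762 and 28455268 estimated counts. NONO itself fell from 391, 358 and 369 to 61.8, 64.3 and 61.9 CPM (counts scaled to library size) after its knockdown (log2 fold change -2.57, SE 0.049, adjusted p = 1.17e-10), and PKM fell from 2276, 2211 and 2324 to 218, 228 and 234 CPM after PKM2 knockdown (log2 fold change -3.32, SE 0.05, adjusted p = 7.03e-12). VIM and CD44, which mark this mesenchymal line, were at mean levels of 285 to 4413 TPM (abundance scaled for transcript length and depth) over the 4 groups, while ESR1, PGR and CDH1 stayed at or below 0.157 TPM and EPCAM at or below 3.32 TPM. ERBB2, low in a triple-negative line, was measured at 14.4 to 30.8 TPM. NC library 1 of the NONO experiment and PKM2 knockdown library 3 stood apart from their repeats, with a chi-square per degree of freedom of up to 11.1 and 13.4 against 2.38 to 4.42 for the pairs without them. Member counts are therefore given with and without these libraries.

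In control cells most members were abundant. HNRNPC, which binds uridine tracts of nascent RNA, was the highest by mean, at 756, 746 and 743 TPM in the NC libraries of the NONO experiment and 799, 793 and 787 TPM in those of the PKM2 experiment. HNRNPH1, a binder of guanine runs, followed at 792, 735 and 801 and at 673, 739 and 711 TPM. HNRNPK, which binds cytosine-rich RNA, was at 606, 575 and 578 and at 552, 545 and 537 TPM. The 4 highest members were hnRNPs, and HNRNPA3 closed this set at 439, 405 and 429.6 and at 548, 529 and 514 TPM. At the other end, HNRNPLL, known for exon silencing in lymphocytes, was at 20.3, 23 and 25.2 and at 25.4, 27.2 and 23.5 TPM, and SRSF8 at 24.2, 24.8 and 20.8 and at 19.6, 18.6 and 17.4 TPM. ESRP1, an epithelial splicing factor, held 0 to 3 estimated counts per library, and SRSF12 0 to 4, so neither passed the filter on low counts and neither was tested. A count of 0 allows up to 3 counts, so no difference in these genes was detectable at this depth. The remaining 44 members passed in each experiment.

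**Figure D1:**
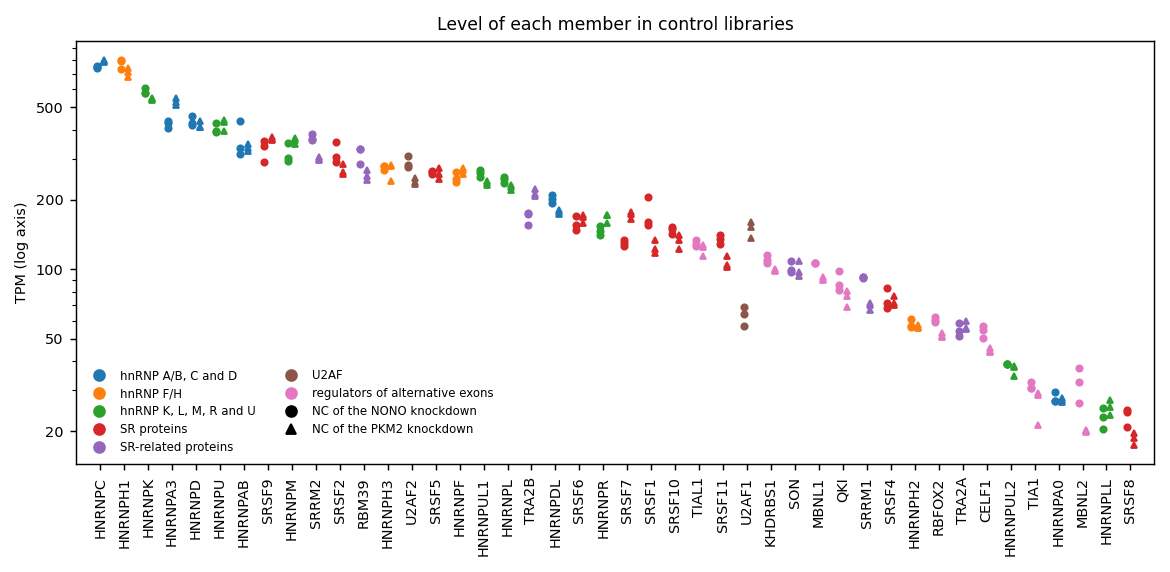
TPM (log axis) of the 44 tested members in the 3 NC libraries of each experiment, ordered by mean and coloured by role, with circles for the NONO experiment and triangles for the PKM2 experiment. HNRNPC and HNRNPH1 are highest, and HNRNPLL and SRSF8 lowest.

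To ask how each knockdown changed these transcripts, NONO knockdown and PKM2 knockdown cells were each set against their own NC group in edgeR (quasi-likelihood test, p-values adjusted over all genes tested by Benjamini-Hochberg), with a call at an adjusted p below 0.05. After PKM2 knockdown, 25 of the 44 members rose (56.8%) and 11 fell (25.0%), beside 33.6% and 34.7% of the 15524 genes tested. The median log2 fold change of the members was 0.18, against -0.015 over all genes. Of the 18 hnRNPs, 14 rose and 3 fell, of the 10 SR proteins 1 rose and 4 fell, and 3 members changed over 2-fold with an unadjusted p below 0.05, a rule that 20.8% of all genes met. When TPM was tested by limma instead, 17 members rose and 13 fell beside 25.1% and 34.7% of genes. HNRNPH1 and KHDRBS1 turned from a rise to a value just below 0, where the median over all genes was -0.0937. On TPM 9 of the hnRNPs rose and 4 fell, and none of the 4 falls among the SR proteins was lost. In edgeR on counts, the falls among the SR proteins numbered 2 without NC library 1 or 3 or knockdown library 1. In these fits 5053 of 15845, 5029 of 15861 and 5221 of 15964 genes were lowered. Without PKM2 knockdown library 3 the counts were 27 and 11, beside 5376 and 5487 of 15912 genes.

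After NONO knockdown, of the 44 members 9 rose and 6 fell, beside 16.2% and 17.2% of the 14832 genes tested, so the shares (20.5% and 13.6%) were near those of all genes. None changed over 2-fold, a rule that 2.95% of all genes met, and at a fold change above 2 every alternative tool and setting also gave 0. The median log2 fold change was 0.017, against -0.011 over all genes. These counts depended on the library that stood apart, NC library 1. When it was left out there were 18 rises (40.91% of members) and 5 falls (11.36%), beside 3189 and 3060 of 15170 genes. The share of members raised was thus above that of all genes without this library. Members that gained a call without it were SRSF1 (log2 fold change 0.31), HNRNPU (0.19), HNRNPR (0.17), SRSF2 (0.16), SON (0.12), HNRNPH1 (0.10), RBFOX2 (0.096), HNRNPC (0.088) and HNRNPD (0.079). The counts also differed between edgeR on counts and limma on TPM, where tool, normalization and unit all change. Limma gave 2 rises and 4 falls beside 6.61% and 12.6% of genes. MBNL1 turned to -0.021 there, while the median over all genes was -0.0525. On TPM 11 of the 15 NONO calls were lost, those of MBNL2, CELF1, HNRNPLL and HNRNPA0 among them, while those of U2AF1, HNRNPDL, SRSF9 and HNRNPUL1 were not. The calls of MBNL1, HNRNPUL2, HNRNPF, QKI and HNRNPAB were lost without NONO knockdown library 2 and likewise without library 3, those of MBNL1 and HNRNPUL2 also without NC library 2 or 3, that of HNRNPUL2 without knockdown library 1 and that of HNRNPF without NC library 3.

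**Figure D2:**
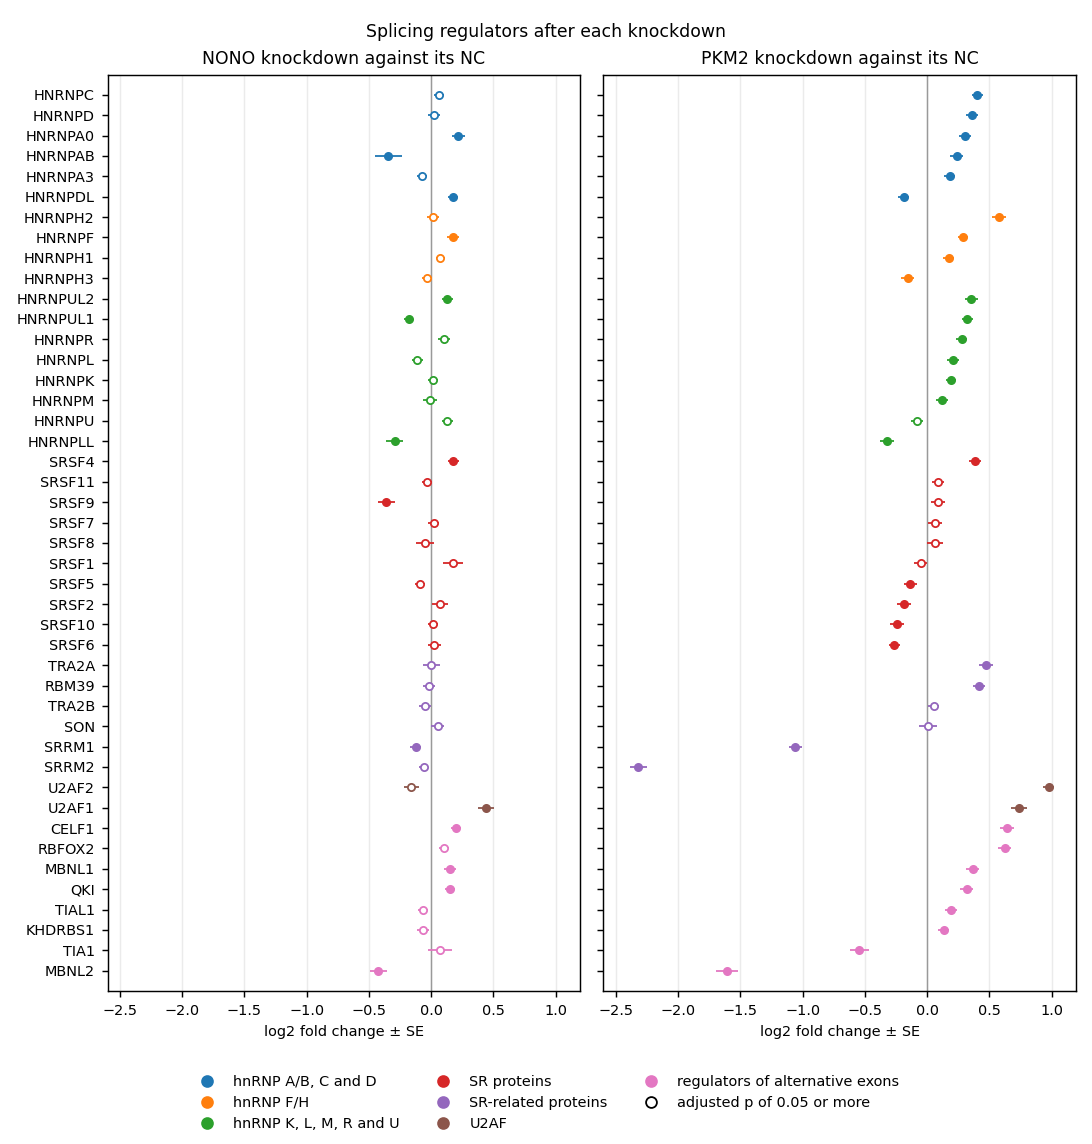
Log2 fold change with its SE (edgeR) of the 44 tested members after NONO knockdown (left) and PKM2 knockdown (right), 3 libraries per group, ordered by role. Filled circles have an adjusted p below 0.05. After PKM2 knockdown SRRM2, MBNL2 and SRRM1 lie at or below -1.06, and U2AF2 is highest at 0.98.

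The largest change of any member was that of SRRM2, a very long SR-related protein that helps to build nuclear speckles, the stores of splicing factors. SRRM2 was at 641, 608 and 645 CPM in the NC libraries and at 132, 135 and 113 CPM after PKM2 knockdown. The knockdown libraries were all far below the NC libraries, 4.99-fold lower in the fit (log2 fold change -2.32, SE 0.068, adjusted p = 2.15e-10). After NONO knockdown SRRM2 was at 801, 783 and 796 CPM against 841, 805 and 837 CPM (log2 fold change -0.061, SE 0.036, adjusted p = 0.228). These groups lay next to each other without overlap and the difference did not pass the test. The change after PKM2 knockdown was lower than that after NONO knockdown by the test of the difference (-2.27, SE 0.08, adjusted p = 9.40e-13).

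SRRM1, a splicing coactivator that works with SRRM2, fell as well. It was at 132, 122 and 123 CPM in the NC libraries and at 61.6, 60.7 and 58.8 CPM after PKM2 knockdown (log2 fold change -1.06, SE 0.053, adjusted p = 9.05e-09). The groups were well apart, at a 2.08-fold lower level. After NONO knockdown SRRM1 was at 139, 133.5 and 135 CPM against 151.5, 143 and 150.1 CPM (log2 fold change -0.12, SE 0.043, adjusted p = 0.0484), a small fall that passed narrowly and was lost under every alternative except leaving out NC library 2. SON, the other large speckle scaffold, did not pass after PKM2 knockdown, at 306, 313 and 255 CPM against 304, 279 and 288 CPM (log2 fold change 0.0049, SE 0.072, adjusted p = 0.957), though without knockdown library 3 it was called at 0.099 (adjusted p = 0.0393).

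Among the other SR-related proteins, TRA2A and TRA2B bind purine-rich exonic enhancers and RBM39 is a U2AF-like factor. TRA2A rose from 60.5, 56.5 and 56.7 to 77.5, 80.5 and 83.8 CPM after PKM2 knockdown (log2 fold change 0.48, SE 0.056, adjusted p = 1.13e-05), with no overlap of the groups. After NONO knockdown it was at 56.8, 57 and 58 CPM against 63.8, 54.4 and 53.8 CPM (log2 fold change -0.0002). RBM39 rose from 300.1, 321.5 and 299.5 to 424, 401 and 402 CPM after PKM2 knockdown (log2 fold change 0.41, SE 0.048, adjusted p = 1.16e-05) and did not pass after NONO knockdown, at 343, 342.5 and 336 CPM against 319, 359.8 and 352 CPM. TRA2B, the closest relative of TRA2A, did not pass after PKM2 knockdown (log2 fold change 0.052, SE 0.042, adjusted p = 0.289) but passed with the length offset (0.092), and on TPM its value was -0.0805.

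**Figure D3:**
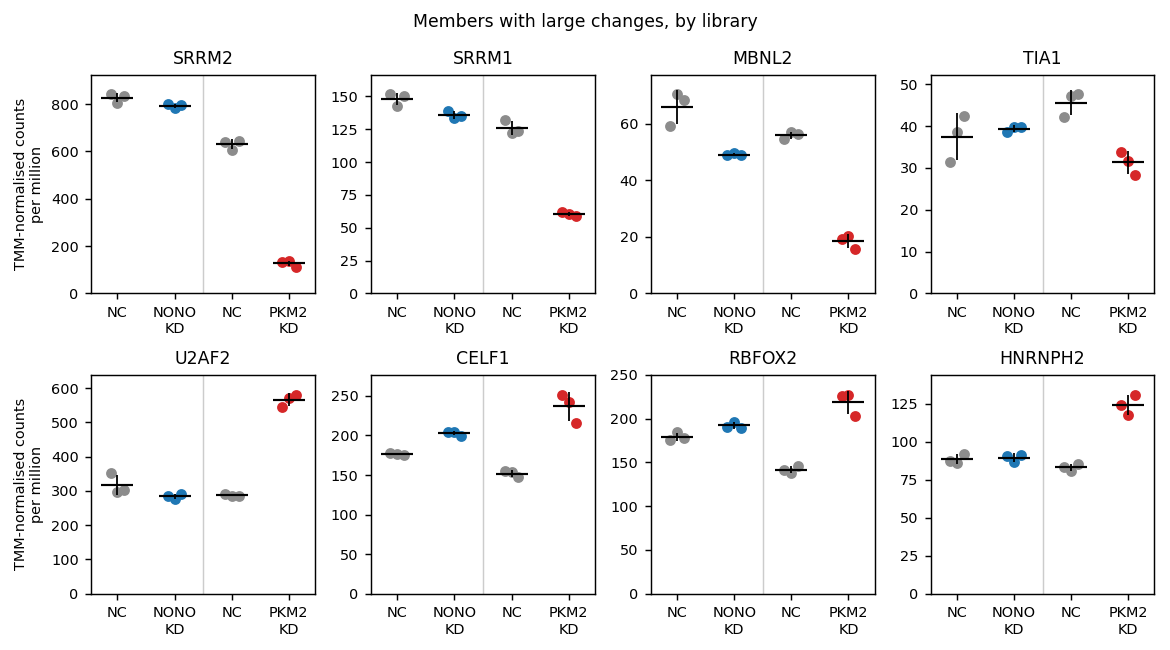
TMM-normalised CPM per library (points), group mean (horizontal line) and SD (vertical line, n = 3) of 8 members with large changes, each with an axis from 0. The NONO and PKM2 experiments were normalised separately, so levels are read within an experiment. After PKM2 knockdown SRRM2 is at 135 CPM or below against at least 608 CPM in NC, and U2AF2 at 545 CPM or above against at most 291 CPM.

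The classical SR proteins, which define exons through enhancer binding, changed little in size on counts. SRSF6 was at 213.5, 212 and 203 CPM in NC and at 177, 174 and 173 CPM after PKM2 knockdown (log2 fold change -0.26, SE 0.045, adjusted p = 2.41e-04). SRSF10, known as a repressor when it is dephosphorylated, was at 234, 223 and 220.4 and at 201, 194 and 178 CPM (log2 fold change -0.24, SE 0.054, adjusted p = 0.00183). These falls left the groups apart. SRSF2, which reads cytosine- and guanine-rich enhancers, was at 288, 265 and 284 and at 232, 244 and 262 CPM (log2 fold change -0.18, SE 0.057, adjusted p = 0.0128). On counts SRSF5 fell by less (log2 fold change -0.14, adjusted p = 0.0376). On TPM these falls were larger, at -0.51 for SRSF6, -0.39 for SRSF10, -0.37 for SRSF5 and -0.22 for SRSF2. The median over all genes was -0.0937 there. The call of SRSF2 was lost without NC library 1 or 3 or knockdown library 1, and that of SRSF5 in DESeq2, with RLE size factors, without the low-count filter and with any 1 library other than knockdown library 3 left out. SRSF4 rose, from 111.5, 108 and 109 to 147, 146 and 137 CPM (log2 fold change 0.39, SE 0.049, adjusted p = 2.07e-05), and it rose after NONO knockdown too, from 106, 106.5 and 107.5 to 119.7, 121 and 122 CPM (log2 fold change 0.18, SE 0.04, adjusted p = 0.00536).

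SRSF9, a short SR protein with few repeats, showed the largest fall of an SR protein after NONO knockdown, from 229.8, 218 and 185 to 168, 168 and 158 CPM (log2 fold change -0.36, SE 0.07, adjusted p = 0.00221). All NONO knockdown libraries were below all NC libraries. After PKM2 knockdown it was at 256, 233 and 270.4 CPM against 241, 237 and 238.5 CPM, with overlap (log2 fold change 0.085, SE 0.056, adjusted p = 0.2), and the difference between the knockdowns passed (0.43, SE 0.097, adjusted p = 0.00116). SRSF1, SRSF7, SRSF8 and SRSF11 passed in neither experiment, with log2 fold changes of 0.17, 0.021, -0.047 and -0.03 after NONO knockdown and -0.05, 0.066, 0.064 and 0.087 after PKM2 knockdown. SRSF1 was called after NONO knockdown without NC library 1 (0.31, adjusted p = 1.89e-06) and without the low-count filter, and after PKM2 knockdown it was lowered on TPM and with the GC and length offset. SRSF11 was called after PKM2 knockdown without knockdown library 3 (0.12, adjusted p = 0.0178) and with a length offset, and SRSF9 without knockdown library 2 (0.15, adjusted p = 0.0353). SRSF6, SRSF10 and SRSF2 did not pass after NONO knockdown, at 249, 256 and 266 against 272, 239.6 and 247 CPM, at 229, 234 and 243 against 235, 231 and 232 CPM and at 312, 319 and 331 against 339, 288 and 288 CPM. Without NC library 1 SRSF2 was called at 0.16 (adjusted p = 6.14e-04).

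Genes with many repeats lay on both sides of 0 in the plot of repeats and fold change. SRSF4 (22.9 pairs per 100 codons) rose after PKM2 knockdown while SRSF2 (23.5) and SRSF6 (22.1) fell, and SRSF7 (22.3) did not pass. SRRM2 (12) fell most and TRA2A (14.2) rose.

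**Figure D4:**
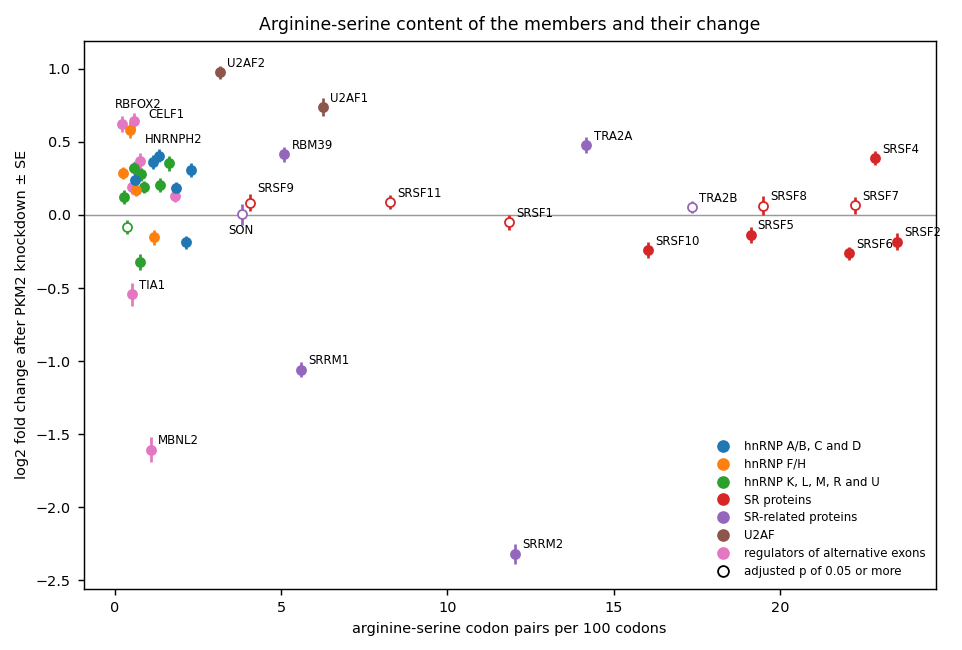
Neighbouring arginine-serine codons per 100 codons (x axis) and log2 fold change with SE after PKM2 knockdown (y axis) of the 44 tested members, coloured by role, filled where the adjusted p was below 0.05. SR proteins reach up to 23.5 pairs per 100 codons, and members with many pairs lie on both sides of 0.

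U2AF, which pairs a large subunit on the polypyrimidine tract with a small subunit on the adjoining 3′ splice site, rose in both subunits after PKM2 knockdown. U2AF2, the large subunit (chr19:55654146-55674715, plus strand), was at 291, 285.5 and 286 CPM in NC and at 545, 572 and 581 CPM after PKM2 knockdown (log2 fold change 0.98, SE 0.045, adjusted p = 4.74e-09), the largest rise of any member at 1.97-fold. The groups were far apart. After NONO knockdown it was at 284, 277 and 291 CPM against 351, 297 and 303 CPM (log2 fold change -0.16, SE 0.06, adjusted p = 0.0626), lower in all libraries but not past the test, though it passed without NC library 2 (-0.20, adjusted p = 0.0359) and without the low-count filter. The difference between the knockdowns was the largest positive one (1.12, SE 0.081, adjusted p = 5.03e-09).

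U2AF1, the small subunit, rose from 88.9, 83.7 and 77.7 to 136, 134 and 148 CPM after PKM2 knockdown (log2 fold change 0.74, SE 0.061, adjusted p = 6.15e-07) and from 49.9, 47.9 and 45 to 59.3, 66.1 and 68.4 CPM after NONO knockdown (log2 fold change 0.44, SE 0.066, adjusted p = 4.32e-04), the largest rise of a member in that experiment. Its counts are uncertain because the GRCh38 annotation places a near-identical sequence, U2AF1L5, elsewhere on chromosome 21. Whether the cells carry it as a second gene was not tested. Of 3 transcript pairs of equal length, 1 pair of 1019 bases differed at 1 base outside the coding part and 1 pair of 1675 bases at 2. U2AF1 was given 40.2% to 44.9% of the summed counts in the NONO libraries and 59.6% to 63.7% in the PKM2 libraries. With both genes summed, the log2 fold change was 0.34 after NONO knockdown (SE 0.052, adjusted p = 0.000492) and 0.80 after PKM2 knockdown (SE 0.053, adjusted p = 9.55e-08), so the rise was present in the sum as well. The difference between the knockdowns passed for U2AF1 alone (0.29, SE 0.095, adjusted p = 0.0181) and for the sum (0.44, SE 0.080, adjusted p = 0.000164), while for U2AF1 alone it was lost on TPM and with a length offset.

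The hnRNPs of the A/B, C and D type package nascent transcripts, and HNRNPD also marks AU-rich messages for decay. After PKM2 knockdown 5 of these 6 rose and 1 fell, beside 33.6% and 34.7% of all genes, and 4 rose on TPM. Of their relatives outside the list, HNRNPA1 fell (log2 fold change -0.21, adjusted p = 0.00143) and HNRNPA2B1 did not pass (0.087, adjusted p = 0.115). HNRNPC went from 714, 694 and 695 to 927, 897 and 960.3 CPM (log2 fold change 0.41, SE 0.044, adjusted p = 6.38e-06), while after NONO knockdown it was at 674, 690.4 and 711 CPM against 679, 651 and 659 CPM (log2 fold change 0.062) and did not pass. HNRNPD and HNRNPA3 also rose (log2 fold changes 0.36 and 0.18). HNRNPA3 was at 776, 753 and 738 and at 866, 837.5 and 869 CPM in that experiment and at 756, 689 and 715 and at 684, 673 and 694 CPM in the NONO experiment, where its fold change was below 0 and did not pass. HNRNPA0 rose in both experiments, from 193, 174 and 172 to 201, 210.2 and 216 CPM (log2 fold change 0.22, SE 0.053, adjusted p = 0.00801) and from 169, 158 and 164 to 196.5, 202 and 209 CPM (log2 fold change 0.31, SE 0.048, adjusted p = 1.17e-04).

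HNRNPAB and HNRNPDL moved in opposite directions in the experiments. HNRNPAB was at 470.1, 354 and 331.5 CPM in NC and at 329, 299.6 and 281 CPM after NONO knockdown (log2 fold change -0.35, SE 0.11, adjusted p = 0.0293). NC library 1 was far above the others here, and without it the value was -0.17, still past the test, while DESeq2 and limma did not call it. HNRNPAB rose from 369.9, 345.5 and 344 to 403, 412 and 434 CPM after PKM2 knockdown (log2 fold change 0.24, SE 0.05, adjusted p = 0.00112). HNRNPDL, a relative of HNRNPD, rose from 208, 198 and 207 to 231, 228 and 235 CPM after NONO knockdown (log2 fold change 0.18, SE 0.041, adjusted p = 0.0059) and fell from 177, 171.5 and 171.5 to 151.5, 152 and 153 CPM after PKM2 knockdown (log2 fold change -0.19, SE 0.044, adjusted p = 0.00248). The differences between the knockdowns passed for HNRNPAB (0.57, SE 0.13, adjusted p = 0.00175) and HNRNPDL (-0.38, SE 0.059, adjusted p = 3.85e-05).

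The hnRNPs F and H bind guanine runs near splice sites. HNRNPH2 rose from 83.1, 80.9 and 85.2 to 124, 117 and 131 CPM after PKM2 knockdown (log2 fold change 0.58, SE 0.054, adjusted p = 1.61e-06) and was at 90.8, 86.5 and 91.3 CPM against 87.4, 85.9 and 92.1 CPM after NONO knockdown, with overlap. The difference between the knockdowns passed (0.55, SE 0.073, adjusted p = 6.44e-06). The annotation places 16.3% of its exon bases in a read-through gene with RPL36A. HNRNPF rose in both experiments, from 439, 395 and 403.5 to 462, 467 and 471.5 CPM (log2 fold change 0.18, SE 0.045, adjusted p = 0.0112) and from 424, 422 and 414 to 503.5, 514 and 519.7 CPM (log2 fold change 0.29, SE 0.042, adjusted p = 7.27e-05). HNRNPH1 was at 554, 552 and 528 and 616, 601 and 625 CPM in the PKM2 experiment. In the NONO experiment it was at 613, 575 and 601 and 627, 623 and 633 CPM. In the PKM2 experiment it passed on counts (log2 fold change 0.17), but not with the GC and length offset (0.066) or on TPM (-0.0004). HNRNPH3 fell slightly after PKM2 knockdown (log2 fold change -0.15, SE 0.051, adjusted p = 0.0191), a call lost without NC library 1 or 2 or knockdown library 1 or 2.

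Of the hnRNPs K, L, M, R and U, 6 of 8 rose and 1 fell after PKM2 knockdown, beside 33.6% and 34.7% of all genes, and on TPM 3 rose and 2 fell, beside 25.1% and 34.7%. HNRNPUL2 (log2 fold change 0.35) and HNRNPR (0.28) rose, and HNRNPUL2 also passed after NONO knockdown (0.13). HNRNPK was at 773, 749 and 757 and at 867, 877 and 865 CPM (log2 fold change 0.19, SE 0.041, adjusted p = 0.0012), with 789.5, 723 and 730.5 and 739, 754 and 772 CPM in the NONO experiment. HNRNPL, which binds CA repeats, rose from 258, 251 and 249 to 281.5, 287 and 307 CPM (log2 fold change 0.21, SE 0.048, adjusted p = 0.00231), and was at 256.5, 244 and 241 CPM against 275, 261 and 265 CPM after NONO knockdown (log2 fold change -0.11, SE 0.042, adjusted p = 0.0646), a value that passed on TPM and with the length offsets. HNRNPM rose barely, from 467, 445 and 439.7 to 471, 485 and 514 CPM (log2 fold change 0.12, SE 0.049, adjusted p = 0.0448), and was at 434, 441.5 and 453 CPM against 492, 411 and 433 CPM in the NONO experiment. The rises of HNRNPK, HNRNPL, HNRNPM and HNRNPA3 did not pass on TPM. That of HNRNPM was lost without NC library 2 or 3 or knockdown library 2, and that of HNRNPA3 with the GC and length offset (0.034). HNRNPU, a chromatin-bound scaffold protein, passed in neither experiment (log2 fold changes 0.13 and -0.081). It was called as raised after NONO knockdown without NC library 1 (0.19, adjusted p = 4.83e-06), in DESeq2 and in some other settings, and as lowered after PKM2 knockdown on TPM (-0.26) and with the GC and length offset (-0.094).

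HNRNPLL fell in both experiments, from 47.5, 51.9 and 46.3 to 42.8, 37.6 and 38.5 CPM (log2 fold change -0.29, SE 0.07, adjusted p = 0.00746) and from 46.9, 49.9 and 48.3 to 39.5, 37.8 and 38.8 CPM (log2 fold change -0.32, SE 0.056, adjusted p = 2.95e-04). HNRNPUL1, an HNRNPU-like protein with a part in DNA repair, fell from 585, 558.5 and 573 to 493.5, 511 and 511 CPM after NONO knockdown (log2 fold change -0.18, SE 0.038, adjusted p = 0.00393) and rose from 486, 479 and 493 to 609, 625 and 588 CPM after PKM2 knockdown (log2 fold change 0.32, SE 0.044, adjusted p = 4.19e-05). In each experiment the HNRNPUL1 groups were apart, and the difference between the knockdowns passed (0.49, SE 0.059, adjusted p = 2.17e-06).

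All 8 tested regulators of alternative exons were called after PKM2 knockdown, with 6 rises and 2 falls beside 33.6% and 34.7% of all genes, and on TPM the calls of MBNL1, QKI and KHDRBS1 were lost. MBNL2, a muscleblind protein that binds exons regulated during differentiation, fell from 54.5, 57 and 56.2 to 19.4, 20.2 and 15.6 CPM (log2 fold change -1.61, SE 0.086, adjusted p = 1.60e-08), 3.05-fold lower. It also had the largest fall of a member after NONO knockdown, from 59, 70.3 and 68.2 to 48.7, 49.6 and 48.8 CPM (log2 fold change -0.42, SE 0.067, adjusted p = 6.15e-04). The groups did not overlap in either experiment, though the NONO fall did not pass on TPM, and the fall was greater after PKM2 knockdown (-1.20, SE 0.11, adjusted p = 1.29e-07). Its paralog MBNL1 went the other way, with log2 fold changes of 0.15 (adjusted p = 0.0262) after NONO knockdown and 0.37 (adjusted p = 5.63e-05) after PKM2 knockdown.

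CELF1, which binds GU-rich RNA and acts against MBNL proteins on many exons, rose from 155, 154 and 147 to 251.5, 242 and 216 CPM after PKM2 knockdown (log2 fold change 0.64, SE 0.059, adjusted p = 1.46e-06) and from 178, 177 and 175 to 205, 204 and 199.6 CPM after NONO knockdown (log2 fold change 0.20, SE 0.039, adjusted p = 0.0023). RBFOX2, a regulator of mesenchymal splicing, rose from 142, 138 and 146 to 225, 227 and 203 CPM after PKM2 knockdown (log2 fold change 0.62, SE 0.054, adjusted p = 9.21e-07). After NONO knockdown RBFOX2 was at 191, 197 and 189.8 CPM against 175, 185 and 178 CPM, higher in all libraries without passing (log2 fold change 0.10, SE 0.041, adjusted p = 0.0788). QKI, which also promotes circular RNA formation, rose in both (log2 fold changes 0.15 and 0.32).

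TIA1, a U-rich RNA binder that also forms stress granules, fell from 42.1, 47.3 and 47.6 to 33.8, 31.8 and 28.4 CPM after PKM2 knockdown (log2 fold change -0.54, SE 0.077, adjusted p = 5.95e-05), while after NONO knockdown it was at 38.5, 39.9 and 39.9 CPM against 31.4, 38.6 and 42.4 CPM with overlap. Its relative TIAL1 rose from 169, 163 and 155 to 181, 186 and 190.1 CPM after PKM2 knockdown (log2 fold change 0.19, SE 0.049, adjusted p = 0.00451), and was at 148, 148 and 148 CPM against 157, 152 and 155 CPM after NONO knockdown (log2 fold change -0.066), which did not pass. KHDRBS1, the signal-responsive protein Sam68, was at 174, 173 and 175 and at 187, 187 and 199 CPM in the PKM2 experiment (log2 fold change 0.13, SE 0.046, adjusted p = 0.0218) and at 212, 199.6 and 190.4 and at 196, 189.6 and 189 CPM in the NONO experiment. Its rise was lost with any 1 of the NC libraries left out and with the GC and length offset (0.051). The rise was not present on TPM, where the value was -0.0025 beside a median of -0.0937 over all genes.

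To ask where the knockdowns differed, the change after PKM2 knockdown minus that after NONO knockdown was tested in 1 fit over the 12 libraries. The difference was above 0 for 20 members and below 0 for 9, beside 25.7% and 27.4% of the 15995 genes tested, and it did not pass for 15. Without NC library 1 of the NONO experiment the counts were 21 and 10, beside 4155 and 4263 of 16574 genes. Without PKM2 knockdown library 3 they were 21 and 9, beside 4111 and 4415 of 16192 genes. The lowest differences were those of SRRM2, MBNL2, SRRM1 and TIA1 (adjusted p of TIA1 = 5.27e-04), and the highest those of U2AF2, HNRNPAB, HNRNPH2 and RBFOX2 (log2 difference of RBFOX2 0.51, SE 0.069, adjusted p = 8.70e-06). Of the 44 members 18.2% rose in both experiments, beside 9.34% of the 14525 genes tested in both, and 6.82% fell in both, beside 9.93%. The 8 that rose in both were CELF1, HNRNPA0, HNRNPF, HNRNPUL2, MBNL1, QKI, SRSF4 and U2AF1, and the 3 that fell in both were HNRNPLL, MBNL2 and SRRM1. These shares are given for the main fits only. On TPM U2AF1 alone of the 8 kept its NONO call, and the NONO calls of the 3 were lost. Without NC library 1 of the NONO experiment the call of SRRM1 was lost. HNRNPC, HNRNPD, HNRNPH1, HNRNPR and RBFOX2, raised after PKM2 knockdown, were called as raised after NONO knockdown in that fit. HNRNPAB and HNRNPUL1 fell after NONO and rose after PKM2 knockdown, and HNRNPDL did the reverse, directions shared by 4.18% and 3.79% of all genes. SRSF9 was lowered after NONO knockdown alone (2.27% of members, beside 3.39% of genes), and 0 members were raised there alone, beside 3.3% of genes. After PKM2 knockdown alone 22 members were called, of which 15 rose (34.1%, beside 20.8% of genes) and 7 fell (15.9%, beside 22.2%). Another 7 members were called in neither (15.9%, beside 23.0%). A call in 1 experiment alone is not a test of the difference.

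The machinery around these regulators was described from 5 further lists, to be read beside the 33.6% of all genes raised and 34.7% lowered after PKM2 knockdown and the 16.2% and 17.2% after NONO knockdown. Of 9 kinases that phosphorylate SR proteins, 4 rose (44.4%) and 2 fell (22.2%) after PKM2 knockdown and none passed after NONO knockdown in edgeR, where 1 was raised and 1 lowered at an unadjusted p below 0.05, DESeq2 called 0 and limma lowered 1. SRPK2 rose (log2 fold change 0.59) and CLK2 fell (-0.74), and SRPK3 fell from 0.546, 0.596 and 0.847 to 0.124, 0 and 0.238 CPM at very low counts. Of 18 tested Sm and snRNP proteins, the core of the spliceosome, 9 rose and 6 fell (33.3%) after PKM2 knockdown and 4 rose (22.2%) and 1 fell (5.56%) after NONO knockdown. SNRPA (-0.91), SNRNP200 (-0.79) and SNRNP35 (-0.73) fell after PKM2 knockdown. Of 10 branch-point proteins, which work beside U2AF, 4 rose and 3 fell after PKM2 knockdown and 4 rose and 1 fell after NONO knockdown. SF3B2 rose from 225, 209.6 and 218 to 437, 448 and 472 CPM after PKM2 knockdown (log2 fold change 1.05, SE 0.049, adjusted p = 5.43e-09), with smaller rises of SF3B1 (0.74) and SF3A2 (0.73).

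Many SR and hnRNP genes carry exons that send their own messages to nonsense-mediated decay, so its factors were listed too. Of these 10, 7 rose and 2 fell after PKM2 knockdown, beside 33.6% and 34.7% of all genes, at a median of 0.55 on the log2 scale, and 1 rose after NONO knockdown. SMG5 (log2 fold change 0.72) and UPF3B (0.72) rose after PKM2 knockdown. Of the paralogs of the members, 10 were tested in the PKM2 experiment, where 5 fell (beside 34.7% of all genes) and none rose by edgeR, DESeq2, limma or an unadjusted p below 0.05, and of 11 tested in the NONO experiment 3 rose (27.3%, beside 16.2%) and 4 fell (36.4%, beside 17.2%). CELF2 fell from 64.8, 67.8 and 68.4 to 30.7, 32.9 and 31.5 CPM after PKM2 knockdown (log2 fold change -1.08, SE 0.057, adjusted p = 1.47e-08) and also after NONO knockdown (-0.46), against the rise of CELF1. U2AF1L4 fell in both (-0.48 and -0.62), and CELF6 rose after NONO knockdown (log2 fold change 1.16, SE 0.37, adjusted p = 0.0308) from a mean of 0.449 to 1.01 CPM.

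The counts of some members carry further uncertainty. U2AF2 and SON have unequal transcript lengths in the NONO and PKM2 tables, so their TPM is not compared across them. Over 10% of the exon bases of 7 members (HNRNPH2, HNRNPU, HNRNPUL2, SRSF1, SRSF2, SRSF9 and MBNL1) are shared with another gene, 17 members have named pseudogenes in the tables, and strand handling was not given in the sources used here. In bulk libraries, fewer cells of a kind and less RNA per cell cannot be told apart.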

How the data were processed

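Poly(A) RNA of 12 MDA-MB-231 libraries was sequenced as paired reads of 150 bases. The deposited tables hold estimated counts and TPM per gene, made by the authors from their reads. The submitters' processing notes name fastp, HISAT2, StringTie, RSEM and hg19 without roles or versions, yet the tables hold genes of a GRCh38 annotation, so positions (GENCODE 29, GRCh38) serve for location only. Estimated counts were rounded, filtered (filterByExpr), TMM-normalised and tested with edgeR 4.0.16 in R 4.3.3 (quasi-likelihood, Benjamini-Hochberg over all genes, adjusted p below 0.05; a second rule took over 2-fold changes at unadjusted p below 0.05). SE was the log2 fold change over the root of F. Alternatives were DESeq2 1.42.0, other size factors, no filter, a replicate block, limma 3.58.1 on log2(TPM + 1) and log2(TPM + 0.1) at a mean TPM of at least 1 or unfiltered, length offsets and each library left out. A GC and length offset and the U2AF1 sum were chosen after seeing the data. Scripts were tested on simulated data. Members and lists were chosen with earlier results of these data known. Values per library were given for the 6 largest called falls and rises per experiment, members over 2-fold, the 4 highest and lowest control levels, the 4 largest differences each way and called members of opposite sign. SON was added after its values were seen. Of each further list, up to 3 called genes with the largest change were named, and 1 such gene is not reported here.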

Additional observations from a re-analysis of the deposited data

Results flagged for a closer look

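The change of 29 members differed between PKM2 knockdown and NONO knockdown by the test of the difference itself (edgeR over 12 libraries, adjusted p below 0.05), and each value below is the log2 fold change after PKM2 knockdown minus that after NONO knockdown. Below 0 lay 9 members, with SRRM2 at -2.27, MBNL2 at -1.20, SRRM1 at -0.95, TIA1 at -0.63 and HNRNPDL at -0.38. Among the SR proteins and HNRNPU the differences were smaller, with SRSF6 at -0.30, SRSF10 at -0.27, SRSF2 at -0.27 and HNRNPU at -0.22.

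Above 0 lay 20 members. U2AF2 stood at 1.12, U2AF1 at 0.29, RBFOX2 at 0.51, CELF1 at 0.43, TIAL1 at 0.24, MBNL1 at 0.20 and KHDRBS1 at 0.18. Of the hnRNPs, HNRNPAB stood at 0.57, HNRNPH2 at 0.55, HNRNPUL1 at 0.49, HNRNPC at 0.33, HNRNPD at 0.33, HNRNPL at 0.30, HNRNPA3 at 0.24, HNRNPUL2 at 0.21 and HNRNPK at 0.17. The others were TRA2A at 0.46, SRSF9 at 0.43, RBM39 at 0.41 and SRSF4 at 0.19. Leaving out 1 library lost the difference of HNRNPU, SRSF2, MBNL1, HNRNPK or KHDRBS1 in at least 1 case each, and of no other member. On TPM the differences of HNRNPA3, U2AF1, MBNL1, HNRNPK, CELF1, HNRNPUL2 and KHDRBS1 were lost. On TPM without a filter those of HNRNPC, RBFOX2, SRSF2, TIA1 and SRSF4 were lost too. In edgeR without the low-count filter, those of MBNL1, HNRNPK, HNRNPUL2, SRSF4 and KHDRBS1 were lost. The GC and length offset lost those of HNRNPA3, U2AF1, HNRNPK, SRSF2, SRSF4 and KHDRBS1. Each knockdown was measured against its own NC group, in a table of its own, so the target and the experiment cannot be told apart.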

How the results depend on the processing

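The counts over all 44 members for PKM2 knockdown and for the difference stayed within 1.5 times their values under every other setting except those named here. On log2(TPM + 1) without a filter, limma gave 16 members raised after PKM2 knockdown, beside 3325 of 29763 genes. It gave 3 lowered after NONO knockdown, beside 4.07% of genes. A higher change after PKM2 knockdown was called for 10, beside 2672 of 31578 genes. Members raised after NONO knockdown numbered 2 under each limma setting, beside 6.61%, 6.62% and, unfiltered, 2.13% of genes. With a library left out they numbered 5 to 18. The 5 (11.36% of members) were found without NONO knockdown library 2 or 3, beside 10.9% and 11.1% of genes. The 18 were found without NC library 1, beside 3189 of 15170 genes. With the replicate block the counts were 7 and 5 after NONO knockdown, beside 14.0% and 15.3% of genes. After PKM2 knockdown they were 24 and 11, beside 33.3% and 34.5%. Same-numbered libraries deviated together with correlations of -0.065 to 0.036 in the NONO experiment and -0.065 to 0.012 in the PKM2 experiment, so the numbers were not read as pairs.

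The knockdown of NONO and of PKM was called under every setting. Values that changed sign passed under no full-sample alternative. After NONO knockdown the limma values (pseudocounts of 1, 0.1 and 1 unfiltered) were -0.0893, -0.0894 and -0.0893 for HNRNPH1, -0.0395, -0.0401 and -0.0395 for HNRNPH2, -0.0131 at each for HNRNPK, -0.0407, -0.0409 and -0.0407 for SRSF10, -0.0383, -0.0395 and -0.0383 for TIA1, -0.0086 at each for HNRNPD, -0.0208, -0.0210 and -0.0208 for MBNL1 and -0.0044, -0.0045 and -0.0044 for SRSF7. The GC and length offset gave -0.0084 for HNRNPH2 and 0.0052 for HNRNPM after NONO knockdown, -0.0854 for SRSF9 and -0.0652 for SRSF7 after PKM2 knockdown, and -0.0020 and -0.0943 for the differences of HNRNPH1 and SRSF7. TRA2A after NONO knockdown was 0.0072 with DESeq2, 0.0063 with RLE size factors, 0.0036 without a filter, 0.0029 with the replicate block and 0.0106 with the length offset. After PKM2 knockdown limma gave -0.0004 for HNRNPH1, -0.0025 for KHDRBS1, -0.0507, -0.0508 and -0.0507 for SRSF9, -0.1174, -0.1184 and -0.1174 for SRSF11, -0.0689, -0.0693 and -0.0689 for SRSF7 and -0.0805, -0.0809 and -0.0805 for TRA2B, and the length offset -0.0147 for SRSF9. The limma differences were 0.1039, 0.1047 and 0.1039 for SON, -0.0194, -0.0198 and -0.0194 for SRSF11 and -0.0645, -0.0648 and -0.0645 for SRSF7. With a library left out, values after NONO knockdown ranged from -0.0033 to 0.0643 for HNRNPK, -0.0062 to 0.0793 for HNRNPD, -0.0069 to 0.0665 for SRSF7, -0.0843 to 0.0103 for TRA2B, -0.0561 to 0.0785 for HNRNPM, -0.0547 to 0.0267 for RBM39, -0.0079 to 0.0354 for SRSF10, -0.0069 to 0.0884 for SRSF6, -0.0816 to 0.0062 for SRSF8, -0.0315 to 0.1758 for TIA1 and -0.0387 to 0.0929 for TRA2A, values after PKM2 knockdown from -0.0436 to 0.0994 for SON, and differences from -0.0805 to 0.0326 for HNRNPLL, -0.1156 to 0.0281 for SON and -0.0300 to 0.0841 for SRSF7. Of 2247 recomputed member values, 1933 kept their direction and side of the threshold, 165 lost a call, 60 gained one and 89 changed sign. Of the counts for further lists, 262 stayed within 1.5 times and 38 did not. The difference for U2AF1 fell to 0.0891 with the GC and length offset and did not pass. The causes were not tested.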
